A study of Mus musculus with 2 samples.

Results

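The regions described here are the UPF1 clusters that fall in protein-coding genes whose genomic locus is at least 500000 nt long. A cluster is a stretch of RNA in which reads of a UPF1 immunoprecipitate piled up. Members were the clusters lying in a single RefSeq protein-coding locus of that length (GRCm38) and on its strand, and 16101 of 123349 clusters met this rule (13.1%). They lay in 151 of the 227 long loci, on 20 chromosomes. The median locus was 754071 nt long, the longest was that of Dmd, the dystrophin gene, at 2390387 nt, and 41 of the genes spanned 1000000 nt or more. Clusters within 10000 nt of the 3′ end of the locus, called near, were compared with all other clusters of the same genes, called far.

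The libraries came from cultured neural progenitor cells of mouse cortex with the genotype Upf2fl/fl, in which the gene of the UPF1 partner UPF2 carries loxP sites. Both carried the label MOCK, whose meaning is not stated, and no treatment or age is given for the cells. Enhanced crosslinking and immunoprecipitation (eCLIP) was used: cells were lysed and sonicated, RNA was cut with RNase I, and UPF1 was pulled down with an antibody together with its RNA. There was 1 immunoprecipitate library and 1 input library, so the spread between cultures is unknown and no test between conditions was possible.

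UPF1 is an RNA helicase and the central factor of nonsense-mediated decay, which degrades messenger RNAs whose translation ends too early. UPF1 binds RNA with little sequence preference, and translating ribosomes are known to displace it from coding regions, so that in many cell types it is found mostly on 3′ untranslated regions. Very long genes are almost entirely intron, are prominent in the nervous system, and encode many cell adhesion molecules, receptors, channels and synaptic scaffolds. In such a gene the last exon is a very small part of the transcribed length. Clusters far from the 3′ end can lie in introns or in upstream exons, and these were not told apart here.

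The sequences below are examples of far clusters with reconstructed reads. RefSeq GRCm38.p6 sequence was at hand only for windows of 250 nt before to 50 nt after annotated starts, and 7 far clusters lay whole inside such a window of another gene. Of these 4 are printed. The others, not printed, were a Ctnnd2 cluster close to the 5′ end of its own gene, with a log2 fold of 1.30, and clusters of Npas3 and Pde4b, both at -0.44 and without reconstructed reads. The printed examples therefore do not stand for the far clusters with a fold at or below 0. Each is written 5′ to 3′ on the strand of the long gene, with the cluster in capitals and up to 15 flanking nt in lower case. The Exoc4 cluster (chr6:33442691-33442746, plus strand) lay 531260 nt from the 3′ end, the Magi2 cluster (chr5:20681707-20681753, plus strand) 23062 nt, the Npas3 cluster (chr12:53317262-53317333, plus strand) 754876 nt and the Pard3 cluster (chr8:127474385-127474416, plus strand) 137886 nt.
Exoc4: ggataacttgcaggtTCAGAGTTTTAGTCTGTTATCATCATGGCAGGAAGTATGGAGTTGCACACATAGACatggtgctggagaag
Magi2: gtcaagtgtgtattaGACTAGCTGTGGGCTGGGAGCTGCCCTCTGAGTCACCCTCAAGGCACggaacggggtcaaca
Npas3: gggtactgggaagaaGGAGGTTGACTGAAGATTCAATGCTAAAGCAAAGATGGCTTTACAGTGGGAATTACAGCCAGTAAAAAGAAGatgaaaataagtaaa
Pard3: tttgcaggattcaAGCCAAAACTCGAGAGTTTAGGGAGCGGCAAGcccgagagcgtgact
The Exoc4 stretch is 41.1% G or C and the Magi2 stretch 63.8%. Their log2 folds of immunoprecipitate over input were 0.78 in Exoc4 and 0.56 in each of the others, where 0.56 was taken as 3 immunoprecipitate reads against 1 input read. All 4 genes also had clusters near their 3′ ends with far higher folds, given below. Sequence of those was not analysed here.

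Each cluster has a deposited log2 fold, of immunoprecipitate over input, and a −log10 p. A cluster is called enriched below where both reached 3. Over all clusters of the data set, 11.6% were enriched by this rule. Read counts behind the folds were reconstructed for 9023 of the 9028 members with a fold above 0. The reconstruction assumes that the commonest fold stands for 3 reads against 1. This assumption sets the immunoprecipitate library at 2.03 times the size of the input library. Intervals on shares are Wilson 95% intervals, and those on log2 folds are exact Clopper-Pearson 95% intervals from the reconstructed reads. All cover counting error only, and clusters of 1 gene are not independent of each other. Among markers of the labelled cell type, neural progenitors, 9 of 10 genes had a cluster (Hes1 had none). Among markers of other types, 6 of 8 neuron, 5 of 6 astrocyte and 6 of 7 oligodendrocyte lineage genes had one, and 0 of 11 microglia, vessel, fibroblast and blood genes. An enriched cluster was present in 6 of 10 progenitor, 3 of 8 neuron, 5 of 6 astrocyte and 6 of 7 oligodendrocyte lineage genes. In a bulk culture, fewer cells of a type and less RNA per cell cannot be told apart. In the 123 genes whose strand came from an annotation, all 12935 clusters in a single locus lay on the gene's strand and 0 on the other. This allows a share of up to 0.0232% only if clusters were not restricted to annotated strands when called. Whether they were is not known.

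Enrichment of UPF1 in the longest genes was concentrated in the last 10000 nt. Of 658 near clusters 178 were enriched, 27.1% (23.8 to 30.6), and they lay in 40 of the 106 genes with a near cluster. Of 15443 far clusters 18 were enriched, 0.117% (0.0737 to 0.184), in 15 of 149 genes. The near window made up 1.17% of the summed locus length and held 4.09% of the clusters and 90.8% of the enriched ones. The median log2 fold was 2.30 near and 0.30 far, and the fold was above 0 in 93.3% of near and 54.5% of far clusters. In protein-coding loci of 100000 nt up to 500000 nt, the same rule called 33.9% of near and 0.583% of far clusters, and in loci of 10000 nt up to 100000 nt it called 30.2% and 1.05%. The near share of the long loci lay below that of the intermediate class, whose interval of 32.8 to 35.0 did not overlap it, and its interval included the share of the shortest class. The far share was lower than in either class, again with intervals that did not overlap. In the adjacent loci of 400000 to 500000 nt, however, the far share was 0.119% (0.0508 to 0.278). That interval overlaps the one of the long loci, so no step in the far share was seen at the length limit. No test was made of these differences.

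**Figure D1:**
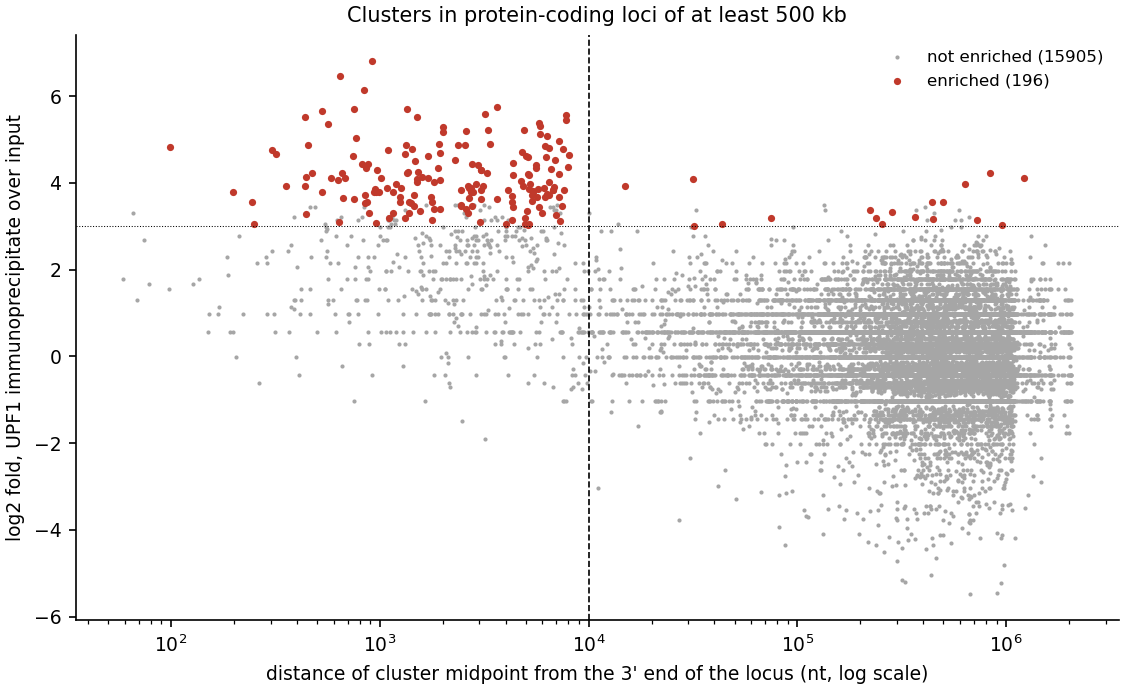
Log2 fold of UPF1 immunoprecipitate over input (vertical axis) against the distance of the cluster midpoint from the 3′ end of its locus in nt (horizontal axis, log scale) for all 16101 clusters. Red points are the 196 enriched clusters, of which 178 lie within 10000 nt of the end, and grey points are the others.

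Near clusters were also deeper, among those with a fold above 0. Reads were not reconstructed for the 7029 far clusters and the few near ones at or below 0, so the read counts and the values of deep clusters leave them out. A reconstructed near cluster held a median of 16 immunoprecipitate reads and a far one 5, each against 1 input read, and near clusters held 21.3% of the reconstructed immunoprecipitate reads. Of the 614 near clusters with a fold above 0, 610 were reconstructed. Among the 178 enriched near clusters 177 were, and 1 with a −log10 p of at least 400 was not. The 177 held 24 to 471 reads, median 51, and in 53.7% of them the input count was 1, so single folds are imprecise. Depth and position therefore moved together, and their separate parts in the enriched share were not tested over the whole set. Among clusters with a fold above 0 and at least 30 immunoprecipitate reads, 152 of 184 near clusters were enriched (82.6%) and 16 of 332 far ones (4.82%). The median fold in these deep clusters was 3.93 near, with a median of 2 input reads, and 1.19 far, with 10 input reads. Both medians lie above 0 by construction, and deep far clusters at or below 0 are missing from this comparison. The deep far clusters lay in 51 genes, among them Erbb4 with 27 and Kcnd2 with 25.

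Enrichment was frequent in each distance class of the near window and rare beyond it. From 0 to 1000 nt 42 of 143 clusters were enriched (29.4%, 22.5 to 37.3), from 1000 to 2000 nt 41 of 127 (32.3%), and from 2000 to 5000 nt 47 of 229 (20.5%). From 5000 to 10000 nt the share was 30.2% (48 of 159, 23.6 to 37.7), whereas it was 15.7% in loci of 100000 to 500000 nt and 6.38% in loci of 10000 to 100000 nt. In the adjacent class, loci of 400000 to 500000 nt, it was 22.1% (19 of 86, 14.6 to 31.9). That interval overlaps the one of the long loci, so no step at the length limit was seen. The 48 enriched clusters of the long loci lay in 7 genes: Lsamp with 13, Erbb4 with 11, Nfia with 10, Ptprt with 7, Sox6 with 3, and Celf2 and Sorcs1 with 2 each. From 10000 to 20000 nt 1 of 140 clusters was enriched (0.714%), from 20000 to 100000 nt 4 of 1110 (0.360%), from 100000 to 500000 nt 7 of 7408 (0.0945%) and beyond 500000 nt 6 of 6785 (0.0884%). Just inside the limit, at 8000 to 10000 nt, 1 of 38 clusters was enriched, and just outside it, at 10000 to 12000 nt, 0 of 39, which allows up to 7.69%. At the length limit, loci of 500000 to 600000 nt had 30.6% of near clusters enriched and loci of 400000 to 500000 nt had 27.7%.

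**Figure D2:**
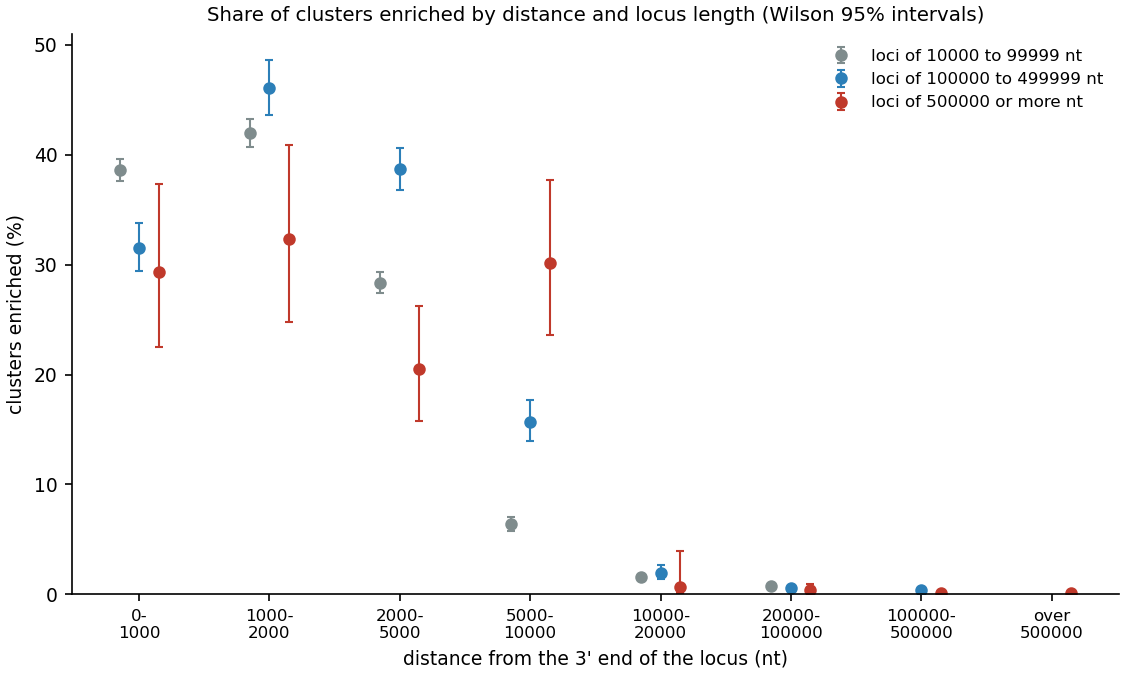
Share of clusters enriched (vertical axis, percent) by distance class from the 3′ end of the locus in nt (horizontal axis), with Wilson 95% intervals as bars and a colour for each class of locus length. The long loci keep a share of 30.2% at 5000 to 10000 nt, where the shorter classes have 15.7% and 6.38%.

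Gene by gene, the near clusters had the higher fold in most of the long genes. Of 104 genes with clusters on both sides, the near median exceeded the far median in 92 (88.5%, 80.9 to 93.3), equalled it in 6 and was below it in 6. The same share was 88.8% in loci of 100000 to 500000 nt. The median difference over genes was 1.22 on the log2 scale, with quartiles of 0.48 and 2.16 and a range from -1.26 in Dscam to 3.80 in Ntm. With at least 3 clusters on each side the near median was higher in 67 of 73 genes. The 6 exceptions were Adgrb3, Camta1, Foxp1, Lpp, Psd3 and Rarb, which are named here because they are the exceptions. At least 1 near cluster was enriched in 37.7% of the genes with a near cluster, against 41.7% in loci of 100000 to 500000 nt. Enrichment was uneven between genes. Lsamp, Nfia, Erbb4, Ptprt and Grm5 held 59 of the 178 enriched near clusters (33.1%), and without these genes the near share was 21.6%.

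Cluster density, which does not use the fold, also differed between the ends and the rest. The 151 genes had a median of 2 clusters per 10000 nt near the end and 0.561 beyond, and 4.36 against 1.21 when all genes were pooled. Clusters were denser near the end in 94 of 151 genes (62.3%), a smaller share than the 74.2% of loci of 100000 to 500000 nt. In 45 of the long genes no cluster lay near the end, where clusters in overlapping loci were left out. A near cluster was present in 106 of 151 long genes, against 1154 of 1479 genes in loci of 100000 to 500000 nt. The 45 include genes with few clusters in all, such as Agbl1 with 1, and genes with many, such as Nlgn1 with 510.

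**Figure D3:**
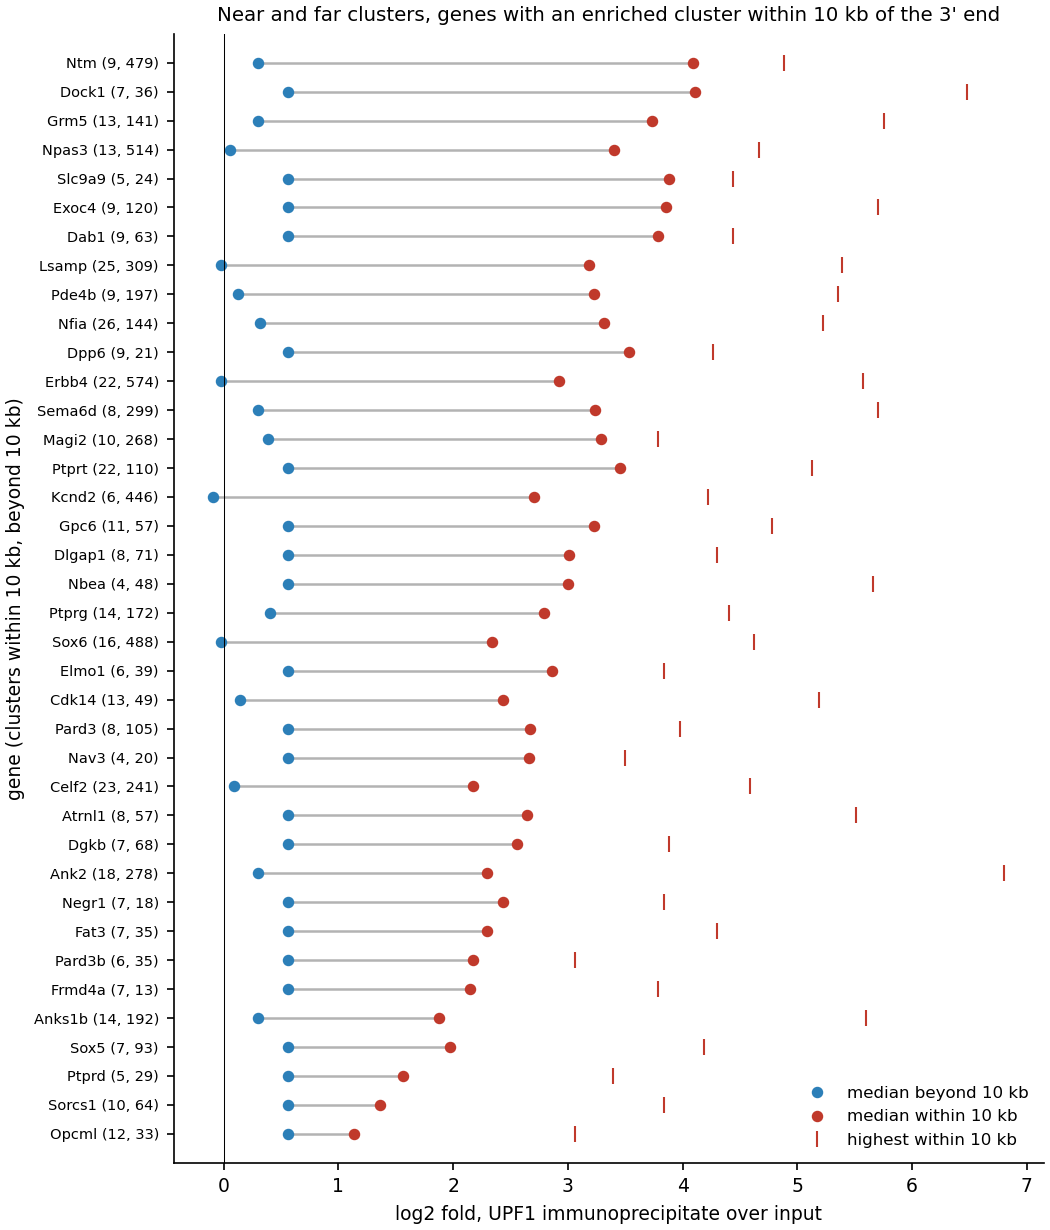
Median log2 fold of clusters within 10000 nt of the 3′ end (red dots) and beyond it (blue dots) for 38 of the 40 genes with an enriched near cluster, with red ticks for the highest near fold and cluster numbers beside each name. In each of these genes the red dot lies to the right of the blue one. The genes were picked for an enriched near cluster, which favours this order. Among all 104 genes with clusters on both sides, 92 had the higher median near the end.

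Adhesion and guidance molecules were the largest group. Of 36 long genes on this list 24 had a cluster, and 37 of their 98 near clusters were enriched, in 6 of 16 genes with a near cluster. Beside this and the lists below, all long genes together had 178 of 658 near clusters enriched (27.1%), in 40 of 106 genes (37.7%). By gene this list was therefore close to the whole set, and Lsamp and Ntm alone held 15 and 8 of its enriched near clusters. Lsamp (chr16:39984254-42181679, plus strand) encodes a membrane-anchored adhesion protein of the limbic system. It had 15 of 25 near clusters enriched, with folds from 3.03 to 5.39, and the highest was at chr16:42175837-42175914, 5804 nt from the end, with 85 reads against 1 (2.87 to 10.71). The 15 clusters lay from 4275 to 6935 nt with 0 non-enriched clusters between them, though with gaps, since at most 3 touched in a row. The 10 clusters closer to the end had a median fold of 2.49. In its 309 far clusters the median was -0.02. Ntm (chr9:28994749-29963269, minus strand), the neurotrimin gene of the same adhesion family, had 8 of 9 near clusters enriched, all between 99 and 1502 nt from the end. Their highest fold was 4.88 (2.35 to 10.21, 60 reads against 1), and its near and far medians were 4.09 and 0.30, the widest difference of the 104 genes. The other long members of this family, Opcml and Negr1, had 1 of 12 and 1 of 7 near clusters enriched, and they are named here after their values were seen.

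Sema6d, which encodes a transmembrane semaphorin, had 5 of 8 near clusters enriched, up to 5.70 (3.83 to 8.76) with 212 reads against 2, at chr2:124666384-124666500. Several large genes of the group had almost no near cluster among those in a single locus. Cadm2, a synaptic adhesion gene, had 565 clusters with 4 near and a highest near fold of 1.56. A further Cadm2 cluster 3803.5 nt from the end, with a fold of 3.44, was left out because another locus overlaps it. Dcc, the netrin receptor gene, had 430 with 1 near at 2.44. Nlgn1, the neuroligin-1 gene, had 510 clusters and Adgrl3, which encodes the adhesion receptor latrophilin-3, 309, with none of them near. The Nlgn1 cluster closest to the end lay 10274.5 nt away, and that of Adgrl3 26183 nt.

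Receptor tyrosine phosphatase and growth factor signalling genes had 31 of 79 near clusters enriched, in 5 of 8 genes. Erbb4 (chr1:68031884-69108576, minus strand), which encodes a receptor for neuregulins, had 596 clusters. All 11 of its enriched near clusters lay between 6087.5 and 8086 nt from the end, with folds from 3.11 to 5.58. There were 0 non-enriched clusters between them, but at most 2 touched in a row. The highest, at chr1:68039670-68039733, held 97 reads against 1 (3.06 to 10.89). The 11 clusters closer to the end had a median of 1.78 and none above 2.73, so the high part of the Erbb4 end was its inner part. Ptprt, a receptor phosphatase gene (chr2:161521988-162661147, minus strand), had 11 of 22 near clusters enriched between 1455 and 7190 nt, up to 5.13 (3.25 to 8.19, 142 reads against 2). Gpc6, which encodes a glypican, had 4 of 11 enriched, up to 4.78, and Ptprg, another receptor phosphatase gene, 4 of 14, up to 4.40. In Gpc6 the near median was 3.22 and the far median 0.56.

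**Figure D4:**
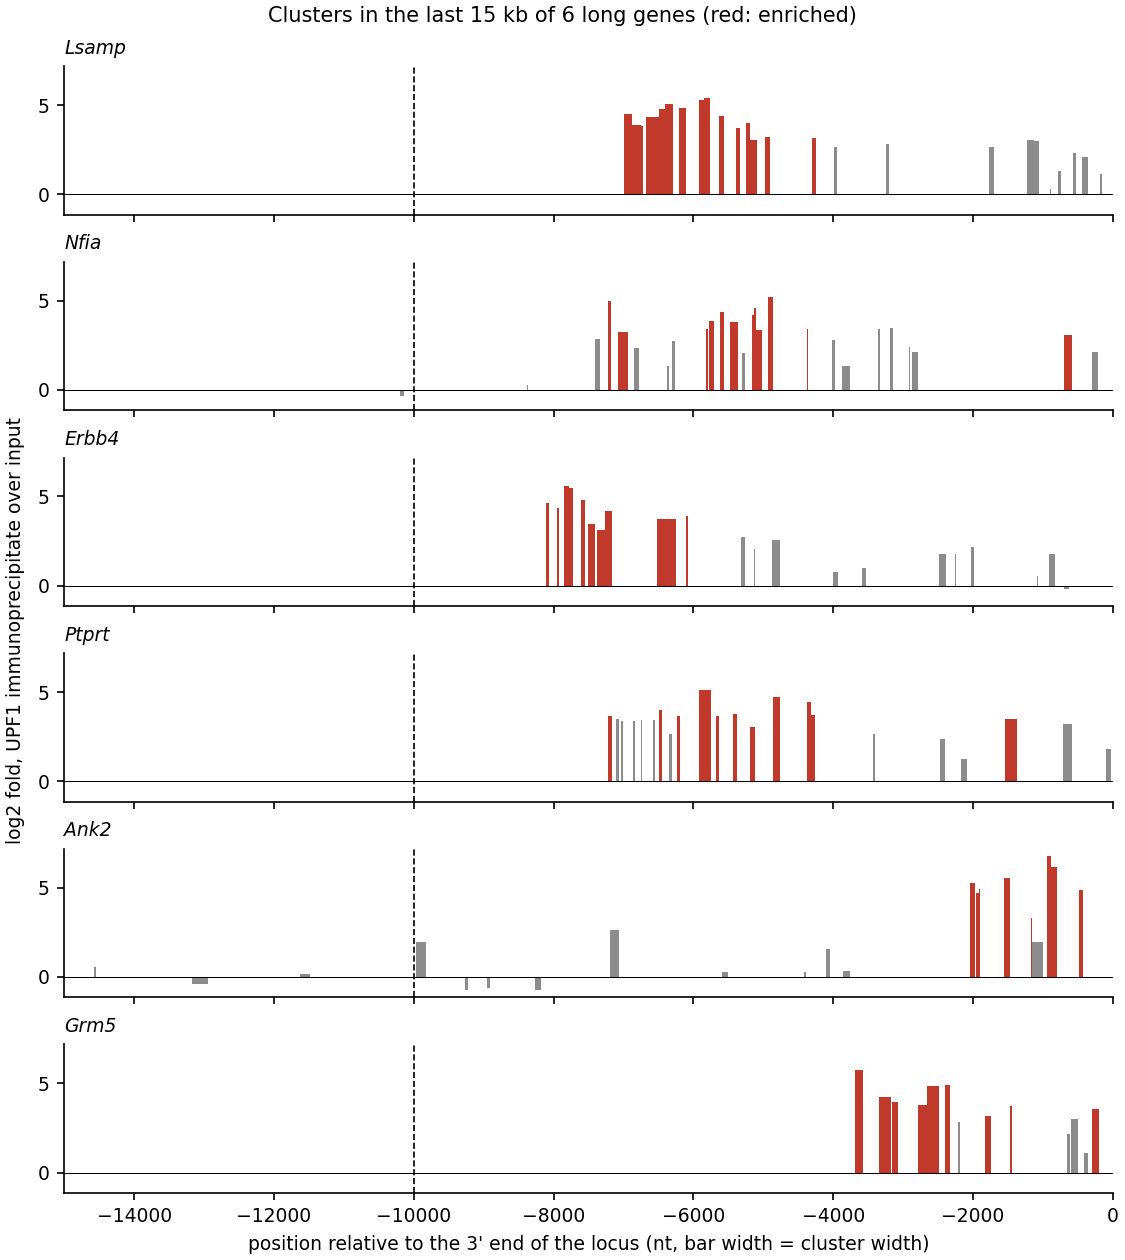
Clusters at the 3′ ends of 6 long genes, drawn as bars at their position relative to the 3′ end in nt (horizontal axis) with the log2 fold as height, red where enriched. The enriched clusters of Lsamp and Erbb4 lie 4275 to 6935 nt and 6087.5 to 8086 nt before the end, while those of Ank2 lie within 2005 nt of it. The dashed line marks 10000 nt.

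Channels and neurotransmitter receptors had 19 of 47 near clusters enriched, in 4 of 9 genes. Grm5 (chr7:87583981-88135063, plus strand), the gene of a metabotropic glutamate receptor, had 9 of 13 enriched between 244 and 3633 nt. The highest, at chr7:88131377-88131484, had a fold of 5.76 (3.25 to 11.07) with 110 reads against 1, and the near and far medians were 3.73 and 0.30. Dpp6, which encodes an auxiliary subunit of A-type potassium channels, had 5 of 9 enriched, up to 4.26, and its near clusters held 82.2% of its reconstructed immunoprecipitate reads. Kcnd2, the gene of a pore-forming subunit of such channels, had 452 clusters and the highest far density of the long genes, 8.84 per 10000 nt, with 2 of 6 near clusters enriched (4.22 and 3.65). Its near clusters held 4.73% of its reconstructed immunoprecipitate reads, which leave out 264 of its 446 far clusters because their fold was below 0. Slc9a9, an endosomal sodium-proton exchanger gene, had 3 of 5 enriched, and the lowest of its near folds was 3.22.

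Scaffold and vesicle genes had 20 of 59 near clusters enriched, in 5 of 11 genes. Exoc4, which encodes a subunit of the exocyst that tethers vesicles to the membrane, had 7 of 9 enriched within 1418 nt of the end. The highest, at chr6:33973163-33973298, reached 5.70 (3.19 to 11.02, 106 reads against 1), beside 0.78 for the internal Exoc4 cluster whose sequence is printed above. Magi2, a synaptic scaffold gene, had 5 of 10 enriched with folds from 3.27 to 3.78, and Anks1b, a postsynaptic scaffold gene, 4 of 14, up to 5.60 (3.73 to 8.65, 197 reads against 2). The 4 Anks1b clusters lay at 2589 to 3362 nt with 0 non-enriched clusters between them, and 3 of them touched. Dlgap1, another postsynaptic scaffold gene, had 3 of 8 enriched, and Nbea, which encodes the membrane trafficking protein neurobeachin, 1 of 4 with a fold of 5.66 (3.15 to 10.98, 103 reads against 1).

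Cytoskeletal genes had 14 of 53 near clusters enriched, in 3 of 6 genes. The highest near fold of all long genes was in Ank2 (chr3:126921607-127500347, minus strand), which encodes ankyrin-B, a membrane-to-cytoskeleton adaptor. The cluster at chr3:126922497-126922543, 913 nt from the end, had a fold of 6.80 (4.31 to 12.11) with 227 reads against 1. All 8 enriched Ank2 clusters lay within 2005 nt of the end, and the 9 near clusters farther away had a median of 0.30, equal to that of its 278 far clusters. Dock1, which encodes an activator of the GTPase Rac, had 5 of 7 enriched within 1012 nt, up to 6.48 (3.98 to 11.79, 181 reads against 1). Frmd4a, a cell polarity scaffold gene, had 1 of 7 enriched at 3.78. Dmd had 6 near clusters with a highest fold of 3.22 (0.57 to 8.60, 19 reads against 1), and 0 enriched.

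Transcription regulators had 28 of 93 near clusters enriched, in 4 of 11 genes. Nfia (chr4:97578066-98118876, plus strand), a factor of gliogenesis, had 13 of 26 enriched spread from 640 to 7201 nt, up to 5.22 (2.70 to 10.55) at chr4:98113948-98114012. It was the gene with the most near clusters, and they held 66.1% of its reconstructed immunoprecipitate reads. Npas3, which encodes a basic helix-loop-helix factor of the brain, had 7 of 13 enriched, up to 4.66 (2.77 to 7.73, 103 reads against 2), against 0.56 for the internal Npas3 cluster printed above. Sox6 had 6 of 16 enriched from 3037 to 5333 nt and its close relative Sox5 2 of 7 at about the same distance, 4276.5 and 4351 nt. Sox6 differed from Sox5 in its 504 against 100 clusters and in its far density of 8.72 against 0.985 per 10000 nt.

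The remaining lists held fewer enriched clusters. Cadherins, catenins and protocadherins had 1 of 36 near clusters enriched (2.78%), in Fat3, an atypical cadherin gene, at 4.30. Pcdh9, a protocadherin gene with 614 clusters, had 1 near cluster, 9308.5 nt from the end with a fold of 0.56. Cdh13, a membrane-anchored cadherin gene, had 7 near clusters of which the highest reached 3.44 with 22 reads against 1, and Ctnnd2, which encodes delta-catenin, had 5 of which the highest reached 3.15. RNA-binding protein genes had 3 of 26, all in Celf2, a splicing regulator, with 3 of 23 enriched and a highest fold of 4.59, while Rbms3 had none of 3 and a highest fold of 1.30. Signalling genes had 9 of 41, among them 5 of 9 in Pde4b, a cyclic AMP phosphodiesterase gene, up to 5.35 (2.83 to 10.67, 83 reads against 1). Pard3, the polarity scaffold gene, had 2 of 8, at 3.98 and 3.56, and Dgkb, a diacylglycerol kinase gene, 1 of 7 at 3.88. Of the fragile-site and enzyme genes, Sorcs1, a sorting receptor gene, had 2 of 10 at 6723 and 7583 nt and Wwox, an oxidoreductase gene at a fragile site, 0 of 5 with a highest fold of 2.30. Outside the lists, Dab1, the adaptor of reelin signalling, had 5 of 9 enriched, Atrnl1 3 of 8 up to 5.51 with 93 reads against 1, and the kinase gene Cdk14 3 of 13 up to 5.19.

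Several genes had many near clusters and 0 enriched ones. Rabgap1l had 11 with a highest fold of 3.15, Diaph2, a formin gene, 10 with 3.22, Pcdh11x 9 with 3.15 and the nuclear receptor gene Rora 8 with 2.56. Cdh13, Edil3, Magi1, Nav2 and Psd3 had 7 each. Where these folds passed 3, the deposited p did not, and the deepest cluster among the highest of these 9 genes held 27 reads, in Edil3. The near median was above the far one in 8 of them, for example at 1.78 against 0.56 in Rabgap1l, 2.51 against 0.56 in Diaph2 and 1.30 against -0.02 in Pcdh11x, and both were 0.56 in Psd3.

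The 18 enriched far clusters were spread over 15 genes, with at most 3 in a gene. Cadm2 had 3, with folds of 3.01, 3.17 and 3.03 at 32009, 445458 and 952176 nt from the end, and Adgrl3 had 2, with 4.08 (2.18 to 7.16, 69 reads against 2) at chr5:81796070-81796197 and 3.20 at 236488 nt. The highest were in Erbb4, 4.22 (1.66 to 9.56, 38 reads against 1) at 834274 nt, and in Csmd1, a complement regulator-like gene, 4.11 (1.53 to 9.45) at 1220034 nt. Gpc6 had 1 at 3.98 and Zbtb20, a zinc finger repressor gene, 1 at 3.93. The Zbtb20 cluster lay 14879.5 nt from the end and was the only enriched one between 10000 and 20000 nt. The others were single clusters in Anks1b, Celf2, Dscam, Exoc4, Grid1, Nav2, Nlgn1, Pard3 and St6galnac3. The Nlgn1 one was the deepest, with 94 reads against 5 and a fold of 3.21 (1.94 to 4.86), and those of Dscam and St6galnac3 the shallowest, with 24 reads against 1. Their surroundings varied. The median fold of the neighbours within 5000 nt was 0.34 around that of Nlgn1 and -0.55 around that of Erbb4, while the highest neighbour reached 3.37 around the first Adgrl3 cluster and 3.06 around that of Zbtb20.

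The 5′ ends showed no such enrichment. The first 10000 nt held 309 clusters in 61 genes with a median fold of 0.39, and 0 were enriched, which allows up to 0.971%. The first 1000 nt held 39 clusters in 26 genes, also with 0 enriched. Far clusters were somewhat more frequent on the 5′ side of the locus midpoint, 8731 of 15443 (56.5%, 55.8 to 57.3). The size of this pooled share depended on the genes with the most clusters: without 10 of them it was 51.3%. Far clusters leave out the last 10000 nt of the 3′ side, so an even spread would give slightly more than 50%. Of 112 genes with at least 10 far clusters, 68 had more than 50% of them on the 5′ side, for example 83.0% in Dcc and 77.7% in Erbb4, against 0.415% in Celf2, 3.65% in Anks1b and 5.22% in Magi2. Folds of -3 or below, listed without a p, occurred in 135 of the 15443 far clusters. They were most often in Cadm2 and Erbb4, with 8 each, and Ntm, with 7. Of the 658 near clusters 0 had such a fold, which allows up to 0.456%.

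Where the clusters began differed between genes, and in some it came after an annotated internal start. Among 78 genes with at least 20 clusters and a RefSeq start in the table used, the first cluster lay a median of 0.706% into the locus, but past 25% of it in 14 genes. In 9 of these 14 a listed start past the first 25% lay upstream of the first cluster. Lsamp is the longest such case: its first 1548572 nt held no cluster, a start is listed there, and the first of its 334 clusters followed 458 nt later. In Dab1 the first cluster lay 5251.5 nt after a start at 748038 nt, and in Celf2 4920 nt after a start at 315039 nt. The others were Nav2 (165.5 nt after), Robo1 (351 nt), Robo2 (572.5 nt), Rbms3 (2527 nt), Rarb (10158 nt) and Tenm3 (15240 nt), listed after their values were seen. No such start was listed for B3galt1, Dmd, Nfia, Pde4b and Pde4d. In Anks1b 7 clusters lay before the starts at 702812 and 703776 nt and 199 after, and in Magi2 3 before the start at 688131 nt and 275 after. Other internal starts had most of the clusters before them: 367 before and 121 after in Ntm, 292 and 15 at the inner start of Sema6d, 239 and 23 in Fgf14, 76 and 24 in Sox5, and 195 and 11 at the last start of Pde4b. The genes in these examples were chosen after their values were seen, and no count over all internal starts was made.

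**Figure D5:**
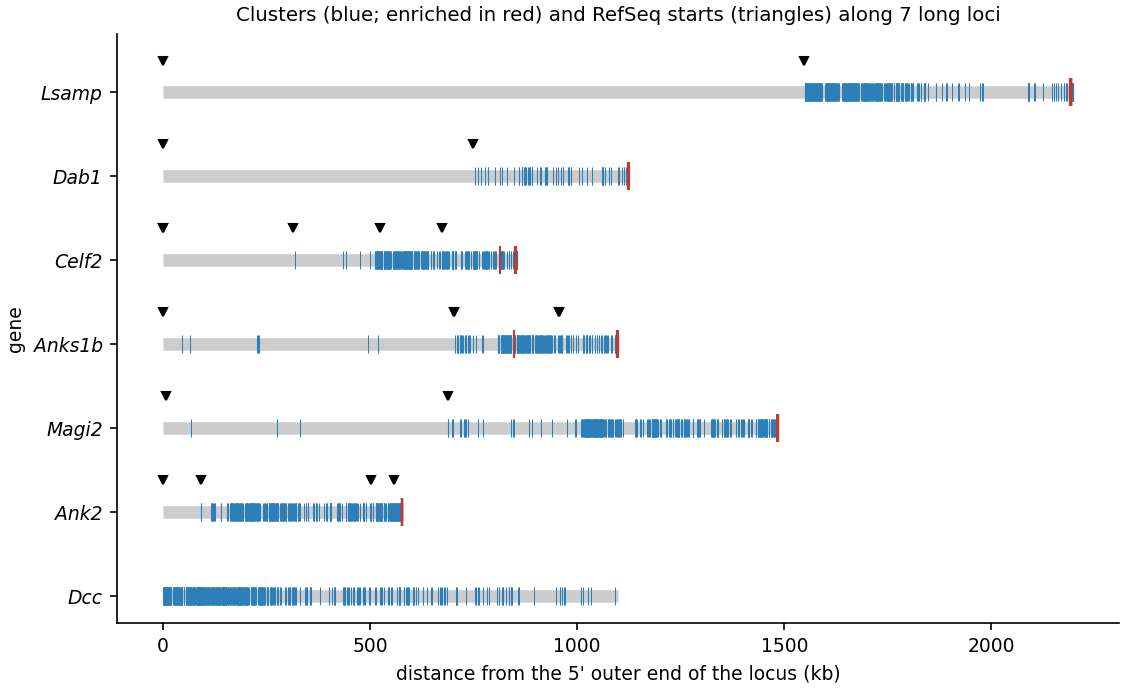
Clusters along 7 long loci (blue ticks, enriched in red) by distance from the 5′ outer end in kb (horizontal axis), with triangles at the RefSeq starts where any is listed. Clusters of Lsamp begin 458 nt after the start at 1548572 nt, those of Dcc, which has no start in the table, begin close to the 5′ end, and the red ticks sit at the 3′ ends except for single ones in Celf2 and Anks1b.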

How the data were processed

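The authors deposited 1 list of stranded clusters with 2 values each, a log2 fold (immunoprecipitate over input) and its −log10 p. These units were read from the values, since the list carries no column names. UMI-tools, cutadapt, STAR and mm10 are named per the submitters' processing notes. No caller, fold formula or filter is given in the sources used here. Clusters were called on the immunoprecipitate, so RNA without enough bound reads is missing, and folds at or below 0 carry a −log10 p of 0 as deposited.

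Clusters were placed in RefSeq GRCm38.p6 loci by outer coordinates. Neither exons nor untranslated regions were used, and distances are genomic, introns included. Strand came from RefSeq start windows for 123 of the 151 genes and from at least 80% of the gene's own clusters (2 or more) for 28, which hold 3166 members. Another 1060 clusters in overlapping loci stayed out. Of the long loci, 20 had no strand.

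Read counts were reconstructed for 90021 of 90350 clusters with a fold above 0 (99.6%) by finding whole counts that give both deposited values, with 3 against 1 reads for the commonest fold, and a −log10 p within 0.05 or 1%. The step was tested on simulated data with the library scale given, so the choice of scale was not part of that test. Input counts under 1 were not tried, so a count of 1 may stand for none. The library scale is -1.02 on the log2 scale. No total read depth is known. Python 3.11.15, pandas 2.3.3, numpy 2.4.6, scipy 1.17.1 and matplotlib 3.10.9 were used.

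Genes named are the 30 with the most enriched near clusters, those with an enriched far cluster, the 10 with the most clusters, the 8 with the most near clusters and none enriched, and the 3 with the highest near fold in each role list. Other names were chosen after seeing values, and a few genes that the rule names are not reported here. Members, lists and rules were chosen with earlier results of these data known. Alternatives varied the thresholds, the near window, the locus length, strand, overlaps and read minimum.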

Additional observations from a re-analysis of the deposited data

How the results depend on the processing

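The share of near clusters enriched stayed above that of far clusters under every alternative tried, but its size moved. The near and far shares were 30.7% and 0.304% for a log2 fold minimum of 2, 13.2% and 0.0194% for a minimum of 4, and 18.5% and 0.0648% for a −log10 p minimum of 5. With at least 10 immunoprecipitate reads they were 43.6% and 0.958%. Counting clusters within 20000 nt as near gave a near share of 22.4%, and counting those within 5000 nt a far share of 0.423%. The near share was 32.3% in loci of 1000000 nt or more and 30.9% without clusters with an input count of 1. The far share was 0.401% in loci of 300000 nt or more and 0.214% among folds above 0. Without Lsamp, Nfia, Erbb4, Ptprt and Grm5, an alternative chosen after seeing the data, the near share was 21.6%, and leaving out 1 gene at a time it ran from 25.8% to 27.6%. The near median exceeded the far one in 100% of the 27 genes of 1000000 nt or more that had clusters on both sides. Without the 10 genes with the most clusters, also chosen after seeing the data, the 5′ side share was 51.3%. The cause was not tested.

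Of the 40 genes with an enriched near cluster, 29 kept one at a log2 fold minimum of 4 and 31 at a −log10 p minimum of 5. Within 5000 nt, Erbb4 and Sorcs1 were lost. Without clusters with an input count of 1, 26 kept one, and those that did not include Atrnl1, Dab1, Dgkb, Dlgap1, Elmo1, Fat3, Frmd4a, Nbea, Negr1, Pard3, Slc9a9, Sorcs1 and Sox5.

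No paired analysis was possible because there was 1 immunoprecipitate and 1 input. Without replicates, no difference was set against the spread between cultures. The input count of 1 in many enriched clusters leaves wide intervals on single folds. Ends of shorter transcripts of the same locus were not used here, so a distance refers to the outermost annotated end.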

Other observations

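Clusters in long loci that overlap other loci were left out of the comparisons. Where the long locus was the only protein-coding one on that strand, there were 1060 further clusters in 71 genes, 34 of them within 10000 nt of the 3′ end. Of these 1 was enriched, in Cadm2, at chr16:66659160-66659279, 3803.5 nt from the end, with a log2 fold of 3.44 and 44 immunoprecipitate reads against 2. With it, Cadm2 would have an enriched near cluster beside its 3 far ones. Of the 40 genes with an enriched near cluster, 17 had 5 or more and 11 had 1.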
